A study of Mus musculus with 24 samples.

Results

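The genes described here are the 8 that build and edge the coat of caveolae, namely the caveolins Cav1, Cav2 and Cav3, the cavins Cavin1, Cavin2 and Cavin3, the ATPase gene Ehd2 and the membrane-bending gene Pacsin2. They were looked up by symbol among the 53801 genes with values, and all 8 were found. The set was chosen on the values themselves, because Cav2 had been seen to be lower in PSC of the inverse co-culture at 72 h. The contrast of co-culture and control at 72 h in the inverse model is therefore described by values alone, with no test and no count of genes past a threshold. The same holds for every contrast that compares its libraries with others.

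Caveolae are flask-shaped pits of the plasma membrane that are rich in cholesterol and are found in large numbers on fibroblasts, adipocytes, endothelial cells and muscle cells. Caveolin proteins sit in the membrane as oligomers, cavins bind them from the cytosol and form the outer coat, and the EHD and PACSIN proteins act at the neck of the pit. The pits flatten when membrane tension rises, and they hold or regulate receptors, lipid transporters and signalling enzymes. Caveolin-1 is the caveolin of most cell types, caveolin-2 forms oligomers with it, and caveolin-3 is the caveolin of striated muscle. Pancreatic stellate cells (PSC) are resident cells of the pancreas that store lipid droplets at rest and take on a fibroblast form on activation.

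PSC came from wild-type C57BL/6J mice of 7 to 10 weeks, with 4 to 10 pancreata pooled for an isolation, and were used between passages 1 and 2. KPC cells, a line of pancreatic cancer cells from 1 mouse that carried p48-Cre and, behind a lox-stop-lox cassette, the allele Trp53 R172H/+, shared the medium with co-cultured PSC and were absent from the mono-cultured control PSC. In the standard model (distant paracrine) the PSC grew on a membrane with pores of 1 µm and the KPC cells at the bottom of the well, whereas in the inverse model (close paracrine) both cell types grew on opposite sides of such a membrane. RNA was taken after 24 h and 72 h, which made 8 groups of 3 libraries each. RNA input was 450 ng in the standard and 120 ng in the inverse model. Both cell types co-existed for up to 96 h in the inverse against up to 72 h in the standard model. Inverse time was counted from 24 h after PSC were seeded beside KPC cells. Standard PSC were seeded in another medium that was changed when co-culture began, and inverse PSC directly in the final medium. These differences and the model cannot be told apart. The sources used here do not state which libraries shared an isolation, and p-values measure the spread between libraries, which may be technical in part.

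Libraries held between 15932737 and 24798761 counted fragments, with a median of 18860269, as recovered from the FPKM values (fragments per kilobase of transcript, scaled to the total of the library). Of 8 stellate cell or fibroblast markers, 7 passed an FPKM of 1 in 3 or more libraries, and Gfap never passed it. By immunostaining, which shows protein, the paper found its PSC positive for GFAP. Endothelial cells, which are rich in caveolae, could be seen by 2 of 9 markers only, with Pecam1, Cdh5 and Kdr never above an FPKM of 1, and their summed level lay between 3.20 and 8.88 in all 24 libraries. Of 9 striated muscle markers, 4 passed an FPKM of 1 in 3 or more libraries, while Myod1 and Myog were at 0 in every library. The summed level of the 9 lay between 37.9 and 216, and it was highest in standard control replicate 1 at 72 h. In bulk RNA, fewer cells of a type and less RNA per cell cannot be told apart.

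Cav2 and Cav1 lie next to each other on chromosome 6, on the same strand, with starts 25150 bases apart and 17219 bases from the end of the first to the start of the second (GENCODE M21, GRCm38). Because both genes went together across libraries, as described further on, the 250 bases before their starts are given (RefSeq, GRCm38.p6, 5′ to 3′), for Cav2 at chr6:17280935-17281184 and for Cav1 at chr6:17306085-17306334, both on the plus strand. Capitals mark matches to the GC box GGGCGG, the CCAAT box CCAAT and the TATA box TATAAA, searched on both strands. The marked matches do not overlap each other.
Cav2: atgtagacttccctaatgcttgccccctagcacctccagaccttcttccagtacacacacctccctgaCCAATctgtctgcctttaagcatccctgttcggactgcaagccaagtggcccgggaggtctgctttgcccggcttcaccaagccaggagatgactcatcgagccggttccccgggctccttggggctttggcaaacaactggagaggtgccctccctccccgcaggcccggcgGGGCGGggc
Cav1: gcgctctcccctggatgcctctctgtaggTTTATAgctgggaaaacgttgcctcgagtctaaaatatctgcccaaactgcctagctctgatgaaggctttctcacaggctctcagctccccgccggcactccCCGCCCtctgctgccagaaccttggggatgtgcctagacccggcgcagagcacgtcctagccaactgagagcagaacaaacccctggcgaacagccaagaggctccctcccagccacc
Each window holds 1 GC box, a motif found in 32.7% of 32851 windows of the same length. The Cav2 window also holds a CCAAT box (33.8% of all windows) and the Cav1 window a match to TATAAA (12.4%), each of which the other lacks. The Cav1 match reads TTTATA, so it lies on the minus strand, and it sits near the end of the window far from the start. Whether it acts as a TATA box was not tested. GC bases make up 62% of the Cav2 and 59.6% of the Cav1 window, against a median of 52.4% over all windows. A second start of Cav1 lies inside the gene, and its window holds none of these 3 motifs. RefSeq windows were found for 7 of the 8 genes, 11 in all. The Cav1 window shown is the 1 of the 11 with a match to TATAAA on either strand.

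PSC expressed 7 of the 8 genes in every library above an FPKM of 1. Cavin1, whose product is needed for the coat to form, had the highest level, with a mean FPKM of 396 over 24 libraries, above 98.6% of the 14452 expressed genes. Ehd2, whose product holds the neck of the pit in place, followed with 197 and Cav1 with 141. Cav1 rested on 732 to 7025 fragments a library and Cav2 on 239 to 1466. Cavin3 reached 81.9, Cavin2 63.5, Pacsin2 51.8 and Cav2 19.4. Cav3 had a mean FPKM of 1.19, passed 1 in 11 of 24 libraries and rested on 7 to 72 fragments a library. The FPKM divide by the mean length of a gene's transcripts, which is 925 bases for Cav1 with its 10 transcripts but 3444 bases when all its exons are joined, and on the second length Cav1 would be at 37.9 and Cavin1 at 229. The order of the genes among each other therefore depends on the length used, while comparisons of 1 gene between libraries do not.

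Cav1 (ENSMUSG00000007655, chr6:17306335-17341452, plus strand) spanned a 7.54-fold range of FPKM over the 24 libraries. In the standard model at 24 h the controls stood at 331, 56.6 and 158 (replicates 1, 2 and 3) and the co-cultures at 227, 46.6 and 145. At 72 h the standard controls stood at 236, 122 and 120 and the co-cultures at 69.2, 51.4 and 95.4. The groups overlapped at 24 h, where replicate 1 was high and replicate 2 low in both, and did not overlap at 72 h. Inverse controls at 24 h stood at 148, 143 and 151 and inverse co-cultures at 98.3, 89.8 and 77.1. At 72 h the inverse controls stood at 328, 207 and 318 and the co-cultures at 43.9, 45.4 and 80.3. Every inverse co-culture library was below every control library at both times. The group means ran from 284 ± 67.4 (SD, n = 3) in inverse controls at 72 h through 182, 159 and 147 in the other controls and 140 in standard co-culture at 24 h to 88.4, 72.0 and 56.5 in the remaining co-cultures, and each group overlapped with the next in this order.

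Cav2 (ENSMUSG00000000058, chr6:17281185-17289115, plus strand) had its highest and lowest groups in common with Cav1. Its standard controls at 24 h stood at an FPKM of 23.5, 9.27 and 30.4 and the co-cultures at 23.3, 9.31 and 22.6. At 72 h they were 23.6, 15.05 and 21.5 in controls and 12.9, 12.1 and 18.99 in co-cultures. Both pairs of groups overlapped. Inverse controls at 24 h stood at 20.4, 16.2 and 17.6 and the co-cultures at 16.98, 15.2 and 13.8, with 1 co-culture library above the lowest control. At 72 h the inverse controls stood at 37.4, 27.0 and 41.9 and the co-cultures at 12.1, 10.4 and 13.7, far apart. The highest group mean was again that of the inverse controls at 72 h, 35.4 ± 7.64 (SD, n = 3), and the lowest that of the inverse co-culture at 72 h, 12.05 ± 1.67, and again each group overlapped with the next in the order of the 8 means.

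Cav3 (chr6:112459505-112472872, plus strand), at a level near 1, had higher means in co-culture. Its inverse controls at 24 h stood at an FPKM of 0.922, 0.767 and 1.79 and the co-cultures at 1.39, 1.85 and 2.74, with overlap. At 72 h the controls stood at 0.860, 0.442 and 0.290 and the co-cultures at 3.11, 1.24 and 1.67, without overlap. An FPKM of 1 was exceeded by all 3 co-cultures at both times, but by 1 control at 24 h and by none at 72 h. Cav3 thus entered the inverse fits, which ask for an FPKM above 1 in 3 or more libraries, through its co-cultures. Its fitted differences there are descriptions. Standard means were 0.588 in controls and 0.945 in co-cultures at 24 h, higher in 3 of 3 pairs, and 0.907 and 1.40 at 72 h, higher in 2 of 3 pairs, with overlap at both times. Of 9 striated muscle markers 3 could be fitted in the inverse model. At 24 h the log2 differences were -1.46 for Acta1 (adjusted p = 0.0168 in limma), -0.19 for Des and 0.63 for Tnnt3, and at 72 h, with no test, -2.04, 0.71 and 0.14. The summed FPKM of the 9 ran from 41.3 to 63.5 in controls at 72 h and from 37.9 to 93.6 in co-cultures, with overlap.

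**Figure D1:**
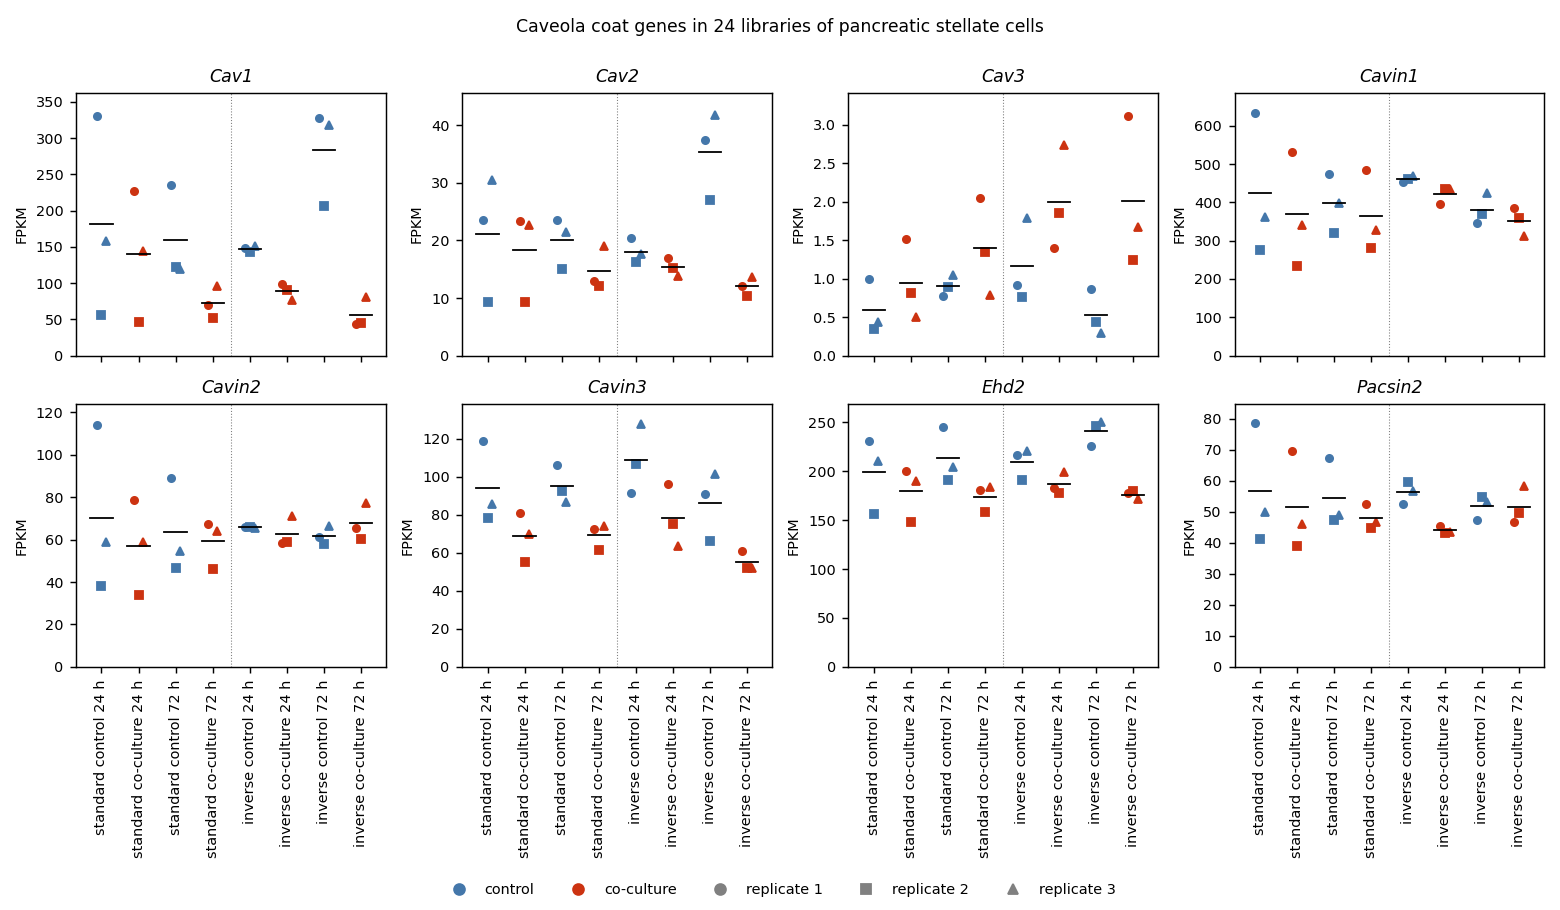
Each panel plots the FPKM of 1 coat gene (linear axis from 0) in the 24 libraries, by group; symbols are the 3 libraries, coloured by control or co-culture, black lines are group means, and the dotted line parts the standard from the inverse model. Cav1 and Cav2 are highest in inverse controls at 72 h and lowest in the co-culture beside them, where Cav1 means are 284 and 56.5, while Cavin1, Cavin2 and Pacsin2 overlap between those groups.

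Cavins form the outer coat on the caveolin oligomers. Cavin1 (chr11:100956733-100970887, minus strand) stood at an FPKM of 453, 460 and 468 in inverse controls at 24 h and at 397, 435 and 434 in the co-cultures, and at 346, 369 and 424 against 385, 358 and 313 at 72 h. The groups did not overlap at 24 h and did at 72 h, and the means at 24 h were 461 ± 7.67 and 422 ± 21.8 (SD, n = 3). Cavin2 (chr1:51289126-51302960, plus strand), a coat subunit that binds phosphatidylserine, had inverse controls at 24 h between 65.2 and 66.1 and co-cultures between 58.1 and 71.2, and at 72 h controls between 57.9 and 66.5 and co-cultures between 60.4 and 77.1. Its groups overlapped in every contrast of co-culture and control. Standard libraries spread further for both genes, with Cavin1 between 275 and 634 in controls and 234 and 532 in co-cultures at 24 h, and Cavin2 between 38.1 and 114 and between 34.0 and 78.4. Replicate 2 was the lowest in each of these groups and replicate 1 the highest.

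Cavin3 (chr7:105480083-105482300, minus strand), a cavin that binds protein kinase C delta, had a lower mean in co-culture than in control in both models and at both times. In the standard model it stood at an FPKM of 119, 78.5 and 85.5 in controls at 24 h against 81.1, 54.9 and 69.8, and at 106, 92.5 and 86.6 against 72.4, 61.2 and 74.2 at 72 h. Inverse values were 91.4, 107 and 128 in controls against 95.9, 75.1 and 63.7 in co-cultures at 24 h, and 90.7, 66.2 and 101 against 60.8, 52.2 and 52.0 at 72 h. The groups were apart at 72 h in both models and overlapped at 24 h. An antisense gene, Gm45667, shares exon positions with Cavin3, and since fragments were counted without regard to strand its fragments cannot be told apart, but its mean FPKM was 0.165.

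Ehd2 (chr7:15946958-15967567, minus strand) had the narrowest range of the 8 genes, 1.70-fold over all libraries. Its inverse FPKM was 216, 191 and 221 in controls and 183, 177 and 199 in co-cultures at 24 h, and 226, 247 and 251 against 177, 180 and 171 at 72 h. Controls and co-cultures overlapped at 24 h and were apart at 72 h. Standard libraries at 72 h were apart too, with 245, 191 and 205 in controls and 180, 158 and 183 in co-cultures. Pacsin2 (chr15:83375607-83464606, minus strand), which bends membranes by its F-BAR domain, stood at 52.4, 59.7 and 56.7 in inverse controls at 24 h and at 45.4, 43.3 and 43.6 in the co-cultures, without overlap. At 72 h its values ran from 47.4 to 54.9 in inverse controls and from 46.8 to 58.5 in the co-cultures, with overlap.

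Tests compared log2(FPKM + 0.5) with the moderated test of limma over all genes tested, with Benjamini-Hochberg adjustment and a threshold of 0.05. Of the 8 coat genes, 1 passed in the inverse contrast at 24 h, against 2.47% of the 12827 genes tested, which were 139 higher and 178 lower genes. That gene was Cav1, lower in co-culture by 0.74 on the log2 scale (SE 0.11, adjusted p = 0.0159) and at 60.0% of the control mean. It was lower in 3 of 3 same-numbered pairs, which follows from groups that do not overlap. No other coat gene passed, with log2 differences of -0.48 (SE 0.17, adjusted p = 0.224) for Cavin3, -0.35 (SE 0.10, adjusted p = 0.128) for Pacsin2 and -0.23 (SE 0.14, adjusted p = 0.509) for Cav2. The values were -0.17 for Ehd2, -0.13 for Cavin1 and -0.07 for Cavin2, with adjusted p from 0.508 to 0.823. Cav3 differed by 0.60, and no test is drawn from it, since it entered the fit through its co-cultures. The median over the 8 genes was -0.20, against -0.06 over all genes tested. In 3 of 8 genes, namely Cav1, Cavin1 and Pacsin2, every co-culture library was below every control library, against 13.8% of all genes tested.

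The call of Cav1 at 24 h was lost when inverse control replicate 1, 2 or 3 or inverse co-culture replicate 2 was left out, with adjusted p = 0.0718, 0.0672, 0.0784 and 0.0606, and over all 6 such fits the log2 difference stayed between -0.82 and -0.65. After division of each library by the median of its gene ratios, the genes called in this contrast split into 179 higher and 145 lower, and Cav1 was lower by 0.68 (adjusted p = 0.0106 in limma).

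In the standard model no coat gene passed at either time. At 72 h, where 0% of 12863 genes passed (800 had an unadjusted p under 0.05, and limma's voom on recovered fragments called 0), Cav1 differed by -1.11 (SE 0.34, adjusted p = 0.725) and Cavin3 by -0.45 (SE 0.13, adjusted p = 0.723). These were the 2 of 8 genes with an unadjusted p under 0.05, and voom called 0 of the 8. Cav2 differed by -0.44 (SE 0.24), Ehd2 by -0.29 (SE 0.14) and Cav3 by 0.38 (SE 0.34), while Pacsin2, Cavin1 and Cavin2 lay between -0.17 and -0.07. Cav1 was lower in 3 of 3 pairs, by 1.76, 1.24 and 0.33 on the log2 scale, with replicate 3 the closest to its control. Every co-culture library was below every control library for 3 of 8 genes, Cav1, Cavin3 and Ehd2, against 9.78% of all genes tested.

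At 24 h in the standard model, 0% of 12859 genes passed (371 had an unadjusted p under 0.05, voom called 0). Cav3 was left out by the filter, which asks that 3 or more of the 6 libraries exceed an FPKM of 1. The other 7 genes differed by between -0.45 (Cavin3, SE 0.22) and -0.12 (Pacsin2, SE 0.31), none with an unadjusted p under 0.05, and none by voom. Their median was -0.19, against -0.01 over all genes tested. For 0 of 8 genes was every co-culture library below every control library, against 4.38% of genes. Libraries with the same number deviated together in this model, and with replicate numbers as blocks 157 genes passed at 24 h and 1 at 72 h, again without a coat gene. Cavin3 came closest at 24 h in that fit, with a log2 difference of -0.45 (SE 0.08, adjusted p = 0.0643), and Cav1 at 72 h, with -1.11 (SE 0.28, adjusted p = 0.337).

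**Figure D2:**
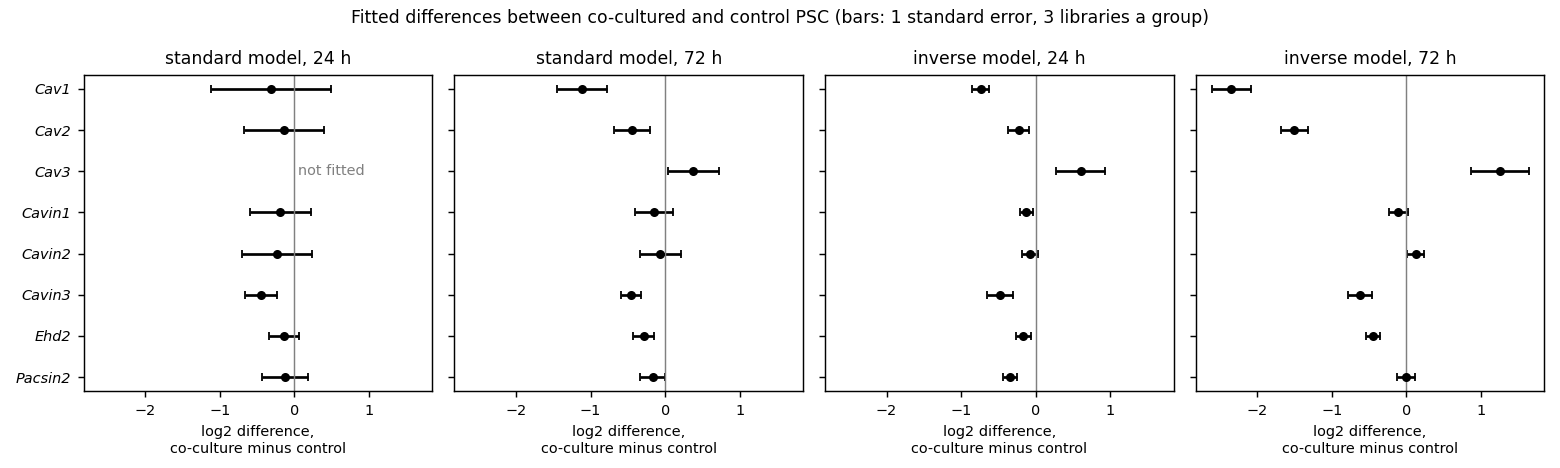
Points are fitted log2 differences between co-cultured and control PSC (x axis, log2(FPKM + 0.5) scale) for each coat gene (y axis) in the 4 contrasts, with bars of 1 standard error, 3 libraries a group; Cav3 was not fitted in the standard model at 24 h. Cav1 lies left of 0 in all 4 panels, from -0.32 to -2.35, and bars in the standard model at 24 h are wider than in the inverse model. The fits had no replicate block, so spread shared by same-numbered standard libraries is part of these bars.

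Whether the response differed between the models was tested at 24 h. Differences of the 2 effects (inverse minus standard) ran from -0.42 (Cav1, SE 0.74) to 0.21 (Cav3, SE 0.51), and 0% of 14452 genes passed (182 had an unadjusted p under 0.05, voom called 0), among them no coat gene by either. The response in the standard model did not pass for a difference between 72 h and 24 h either, where coat genes ran from -0.79 (Cav1, SE 0.95) to 0.17 (Cavin2, SE 0.59), and 0% of 13694 genes passed (141 with an unadjusted p under 0.05, voom 0). Neither fit used the replicate number as a block. Same-numbered standard libraries deviated together, and that spread is part of these standard errors. The fit between models took its spread and filter from all 24 libraries, those of the inverse model at 72 h among them. A fit of only the 12 libraries of 24 h also called no coat gene. Cav1 passed in 0 of 10 other settings in either contrast, the block among them. With the standard errors given, a difference in Cav1 of the size of the inverse effect at 24 h was not detectable in these fits without a block.

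Controls were compared as the background of these contrasts. Standard controls at 72 h differed from those at 24 h by between -0.06 (Cavin2) and 0.11 (Ehd2) over the 7 genes fitted, with 0% of 12963 genes past the threshold (127 with an unadjusted p under 0.05, voom 0). Controls of the inverse model differed from standard controls at 24 h by between -0.07 (Cav2) and 0.22 (Cavin3), with 0% of 12903 genes past it (225 with an unadjusted p under 0.05, voom 0). Cav1 differed by 0.07 (SE 0.65) over time and by 0.03 (SE 0.57) between models. The fit over time had no replicate block, and Cav1 passed there in 0 of 10 other settings, the block among them. No coat gene had an unadjusted p under 0.05 in these contrasts, and voom called none.

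The contrast that chose the set, co-culture against control at 72 h in the inverse model, separated Cav1 and Cav2 further than the other 3 contrasts did. Cav1 was at 19.9% of its control mean, a log2 difference of -2.35 (SE 0.27), and the pairs differed by -2.89, -2.17 and -1.98. Cav2 was at 34.0%, with a log2 difference of -1.50 (SE 0.18) and pairs of -1.59, -1.34 and -1.58. Same-numbered inverse libraries did not deviate together, so nothing is read from how close these pairs lie. Cav3 was higher by 1.25 (SE 0.39) in log2, Cavin3 lower by 0.62 (SE 0.16) and Ehd2 lower by 0.45 (SE 0.09). Cavin1, Cavin2 and Pacsin2 differed by -0.11 (SE 0.12), 0.12 (SE 0.12) and -0.01 (SE 0.12).

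All 13066 genes of that contrast had a median log2 difference of -0.16. For 4 of the 8 coat genes, Cav1, Cav2, Cavin3 and Ehd2, every co-culture library was below every control library, against 28.8% of all genes. Nothing is read from these counts, since the contrast chose the set. Scaling by median gene ratios moved the median of all genes to -0.01. On that scale Cav1 differed by -2.19, Cav2 by -1.35, Cavin3 by -0.46 and Ehd2 by -0.29, Cavin1 turned to 0.05 and Pacsin2 to 0.15. With 1 library left out, Cav1 ran from -2.63 to -2.19 and Cav2 from -1.68 to -1.37.

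The groups of that contrast were also set beside those at 24 h. Between 24 h and 72 h inverse controls went from a Cav1 mean of 147 to 284 FPKM, a log2 difference of 0.92 (SE 0.16), and from a Cav2 mean of 18.1 to 35.4, a log2 difference of 0.94 (SE 0.17). Neither gene overlapped between the times. In the co-cultures Cav1 went from 88.4 to 56.5 (log2 difference -0.69, SE 0.23), with overlap and with replicate 3 no lower at 72 h, and Cav2 from 15.3 to 12.05 (-0.34, SE 0.16), without overlap but with replicate 3 of both times near 13.7. Inverse controls at 72 h were above standard controls at 72 h by 0.88 (SE 0.32) for Cav1 and 0.81 (SE 0.23) for Cav2, and the libraries of the 2 models overlapped for Cav1 (207 to 328 against 120 to 236) but not for Cav2. Cavin1 went the other way in inverse controls, from 461 to 379, a log2 difference of -0.29 (SE 0.10). None of these contrasts with time or model was tested, and they share libraries with the one before.

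Ratios within a library show how far Cav1 and the outer coat went apart. For each library the FPKM of Cav1 was divided by that of Cavin1. In inverse controls the ratio was 0.328, 0.310 and 0.322 at 24 h and 0.948, 0.560 and 0.751 at 72 h, and in the co-cultures 0.248, 0.207 and 0.178 at 24 h and 0.114, 0.127 and 0.256 at 72 h. Co-culture and control were apart at both times in this model. Over standard controls the mean ratio was 0.388 ± 0.164 at 24 h and 0.393 ± 0.0989 at 72 h (SD, n = 3), and in the co-cultures 0.351 ± 0.132 and 0.206 ± 0.0773, with the groups apart at 72 h only.

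The ratio of Cav1 to Cav2 had lower means in co-culture too. Its mean lay between 7.90 and 8.46 in the 4 control groups, with standard control replicate 1 at 24 h reaching 14.1, and in co-cultures it was 7.05 (standard) and 5.77 (inverse) at 24 h and 4.88 and 4.62 at 72 h. At 24 h the inverse controls stood at 7.27, 8.83 and 8.57 and the co-cultures at 5.79, 5.92 and 5.61, without overlap. Cav1 was thus lower relative to Cav2 in those co-cultures, while Cav2 itself did not pass the test. Standard groups overlapped at 24 h, where replicate 3 stood at 5.21 in control and 6.40 in co-culture. At 72 h the groups were apart in both models. For Cavin3 divided by Cavin1 the 8 group means ran from 0.157 in inverse co-culture at 72 h to 0.243 in standard controls at 72 h, each co-culture mean below its control mean. Co-culture and control overlapped in both models at 24 h and in the standard model at 72 h, and were apart in the inverse model at 72 h.

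**Figure D3:**
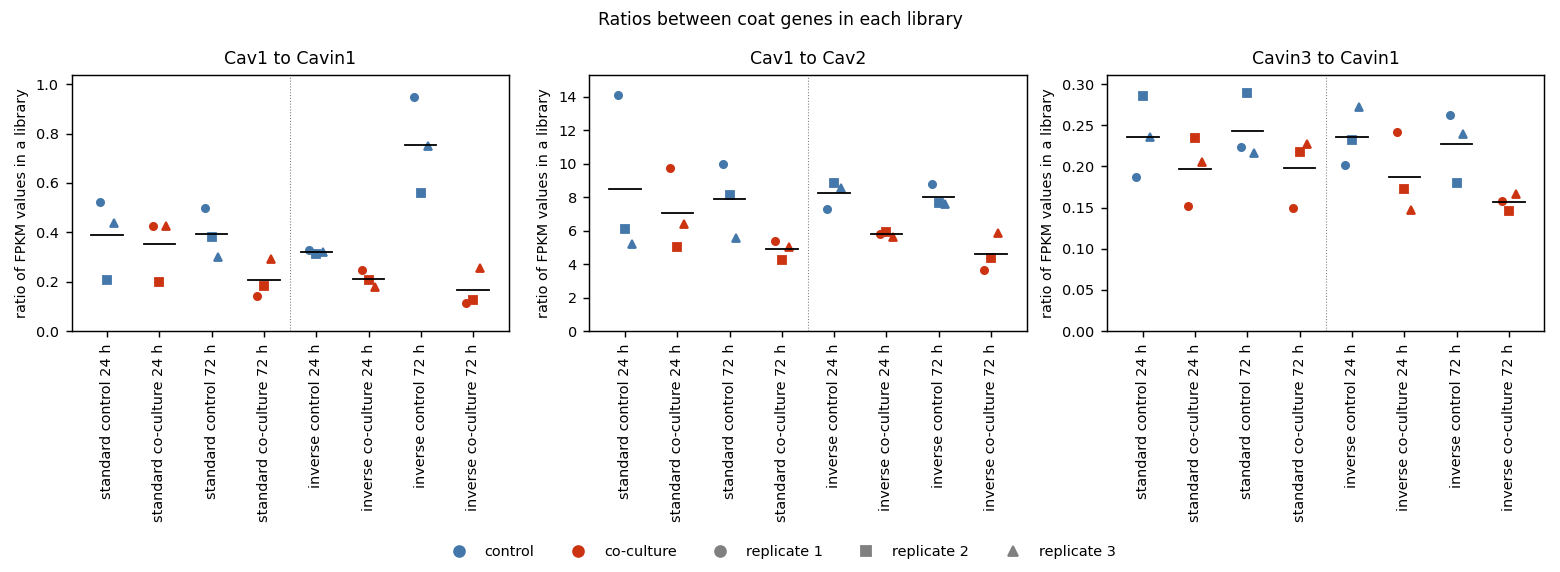
Panels show the ratio of the FPKM of 2 coat genes (linear axes from 0) in each of the 24 libraries by group, with symbols for the 3 libraries and black lines for group means. Cav1 to Cavin1 is highest in inverse controls at 72 h (mean 0.753) and lowest in inverse co-culture at 72 h (0.166), and group means of Cav1 to Cav2 lie between 4.62 and 8.46.

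Cav1 and Cav2 had a Pearson r of 0.91 over the 24 libraries on the log2 scale, 0.86 in the standard and 0.95 in the inverse model with 12 libraries each, and 0.85 for deviations from the group means. The 24 libraries fall into 8 groups and may share isolations, which the sources do not state, so these are descriptions. Cav1 had an r of 0.87 with Ehd2, 0.71 with Cavin3, 0.55 with Cavin1 and -0.44 with Cav3. The genes went together in the standard model in particular, where deviations of Cav1 from the group means had an r of 0.86 with Cavin1, 0.96 with Cavin2 and 0.96 with Ehd2. Within inverse groups the same values were -0.50, 0.49 and -0.36. The spread itself differed, since the pooled SD of Cav1 within groups was 0.94 in the standard and 0.32 in the inverse model on the log2 scale, and that of Cavin2 0.57 and 0.13.

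**Figure D4:**
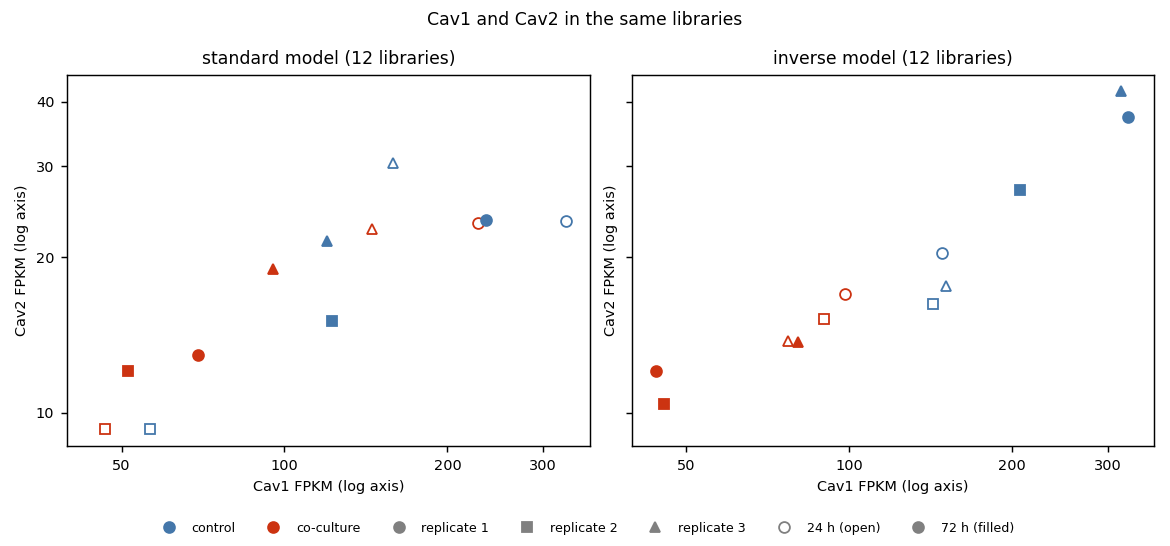
Cav1 (x axis) is plotted against Cav2 (y axis), both in FPKM on log axes, for the 12 libraries of the standard (left) and the 12 of the inverse model (right), with open symbols for 24 h and filled ones for 72 h. Libraries line up from low to high in both genes, with inverse controls at 72 h at the upper end (Cav2 from 27.0 to 41.9) and inverse co-cultures at 72 h toward the lower (from 10.4 to 13.7).

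The genes whose pattern was most like that of Cav1 over the 24 libraries, among 14444 expressed genes without the coat genes, were Oxct1 (r = 0.93), Ywhab (0.92), Mfn2 (0.92), Glud1 (0.92) and Cs (0.91). Oxct1 encodes an enzyme of ketone body use, Mfn2 a mitochondrial fusion protein, Glud1 glutamate dehydrogenase and Cs citrate synthase. For Cav2 they were Me1 (0.88), Cs (0.87), Fabp5 (0.86), Mgll (0.85) and Dlat (0.85). Me1 encodes malic enzyme, Fabp5 a fatty acid binding protein, Mgll monoglyceride lipase and Dlat a subunit of pyruvate dehydrogenase. Only Cs was in both lists of 5.

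Other parts of the machinery were read from lists of genes. Of 13 paralogs and partners of the coat, such as the EHD and PACSIN relatives, dynamins and filamin A, 10 could be tested in the inverse model at 24 h and none passed the threshold, with a median of -0.11. Flna and Abl1, the partners with the highest levels, differed by -0.57 (SE 0.15, adjusted p = 0.103) and -0.00256 (SE 0.09, adjusted p = 0.994) in limma. Ehd3, a paralog of Ehd2, had the largest difference of the 10, -1.09 (SE 0.24, adjusted p = 0.0519 in limma). Of the 10, 8 were below 0, against 62.1% of all genes tested. Ehd1 is listed at 0 in all 24 libraries and gives no value. Of 20 genes of proteins known to reside in or signal from caveolae, 16 could be tested in that contrast, 3 were higher and none lower, against 139 higher and 178 lower among the 12827 genes tested.

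Those 3 residents were receptor or enzyme genes. Tgfbr1, a receptor of transforming growth factor beta, was higher by 0.67 (SE 0.10, adjusted p = 0.0159), with a mean FPKM of 79.9 ± 5.81 in controls and 128 ± 8.48 in co-cultures (SD, n = 3, limma). Pdgfra, a receptor of platelet-derived growth factor, was higher by 0.53 (adjusted p = 0.0222 in limma), from 210 ± 13.3 to 303 ± 5.24. Ptgis, the gene of prostacyclin synthase, was higher by 0.51 (adjusted p = 0.035 in limma). The median over the 16 residents was -0.07, close to that of all genes, and the residents Pdgfrb and Egfr, which have the next highest levels, differed by -0.26 and 0.55 without passing. Ptgis stood at 75.8 ± 3.82 in controls and 108 ± 7.48 in co-cultures.

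A different coat served as a comparison. Of 12 flotillin and clathrin coat genes, 11 could be tested in the inverse model at 24 h, 1 was lower and none higher, against the same 178 and 139 among all genes, and the median was -0.13. The lower one was Picalm, a clathrin assembly gene, with a log2 difference of -0.50 (SE 0.10, adjusted p = 0.0385 in limma) and means of 151 ± 3.92 and 107 ± 9.31 FPKM. Ap2m1 and Flot1, those with the highest levels, differed by -0.07 and -0.05 without passing. In the standard model no gene of the 3 lists passed at 24 h or 72 h.

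Marker lists of cell types and states moved with some of these values. The paper found its PSC positive for αSMA, the product of Acta2, so the smooth muscle or myofibroblast list does not mark other cells alone. In inverse co-cultures at 24 h, where Cav1 was lower, 5 of 7 smooth muscle or myofibroblast markers were lower too, against 178 of 12827 genes, among them Acta2 (log2 difference -1.01, adjusted p = 0.00514 in limma), and their summed FPKM ran from 5354 to 5739 in controls and from 2578 to 3063 in co-cultures. None of the 7 markers is at 0, and their part in the Cav1 difference was not tested. Adipocyte markers, of which 0 of 10 passed and 9 were below 0 in that contrast (median -0.47), had summed levels from 795 to 1260 in controls and from 610 to 995 in co-cultures. Of all genes tested there, 62.1% were below 0.

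At 72 h in the inverse model, adipocyte markers moved with Cav1 and Cav2. Their summed FPKM ran from 1918 to 2867 in controls and from 455 to 1043 in co-cultures, and none was at 0. A log2 difference below 0 was found for 10 of 10 fitted markers, against 68.3% of all genes. Their median was -2.87 against -0.16 over all genes. In inverse controls 10 of 10 had a difference above 0 between 24 h and 72 h, with a median of 1.43 against 0.04 over all genes. Of all genes in that comparison, 45.3% were below 0. Of the macrophage markers 6 of 6 fitted were below 0 at 72 h, with a median of -1.53, and sums ran from 118 to 225 in controls and from 48.9 to 78.7 in co-cultures. Of the smooth muscle markers 6 of 7 were below 0 at 72 h, against the same 68.3% of all genes, with a median of -0.49. Their sums ran from 1670 to 2924 in controls and from 1251 to 2427 in co-cultures, with overlap. The part of these cells or programmes in the Cav1 and Cav2 differences was not tested.

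Across libraries, the summed adipocyte level had an r of 0.77 with Cav1 and 0.85 with Cav2 over the 12 inverse libraries, but -0.56 and -0.26 over the 12 standard libraries, on the log2 scale. Cavin1 had -0.02 and -0.77. In the standard model the libraries numbered 1, with the highest Cav1 in 3 of 4 groups, had the highest smooth muscle sums in all 4 groups, and those numbered 2 had the lowest smooth muscle and the highest macrophage sums, the latter from 350 to 1183 against 36.9 to 164 in the others. Epithelial or cancer cell markers summed to between 1.90 and 45.7 in inverse co-cultures at 24 h and to at most 0.370 in their controls, and to between 1.504 and 8.03 against at most 0.338 at 72 h, without overlap at either time. Krt19, the 1 of 8 markers that could be fitted, differed by 2.45 at 24 h and by 2.03 at 72 h. Its controls stayed below an FPKM of 1, so it passed the filter through its co-culture libraries alone and no test is drawn from it. Epcam, Cdh1 and Cldn4 never passed an FPKM of 1. Their part in the coat gene values was not tested.

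**Figure D5:**
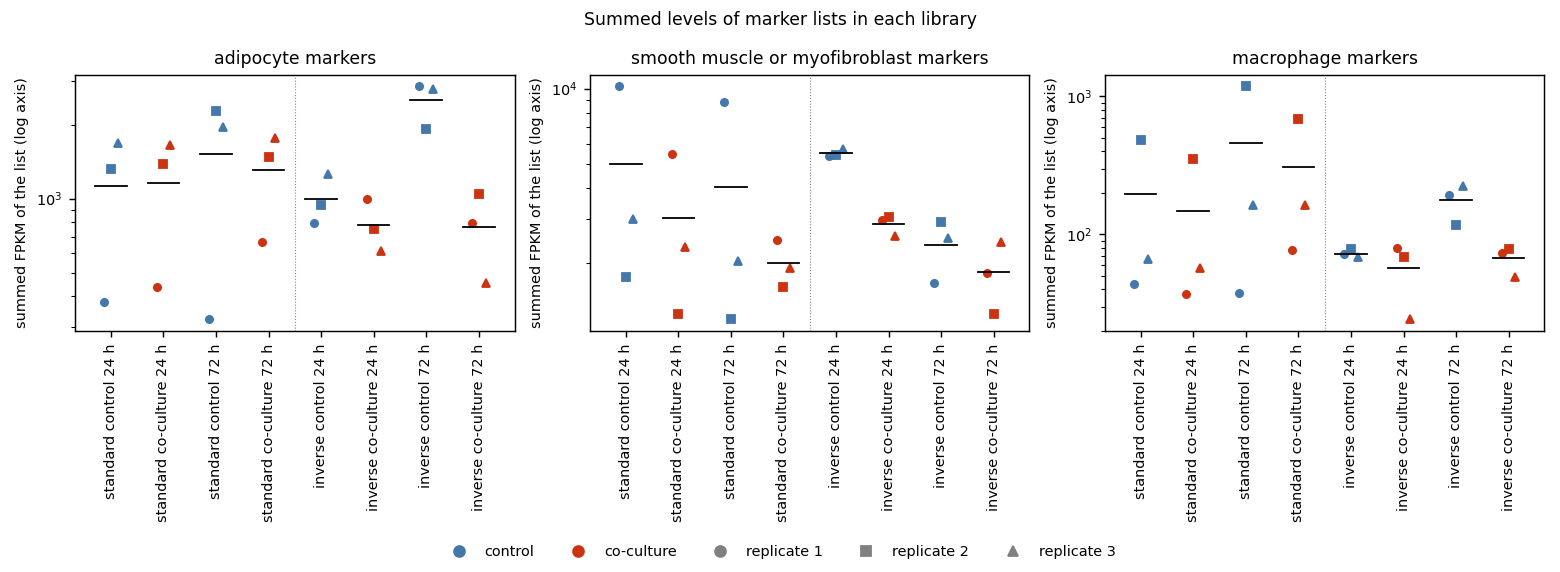
Summed FPKM (log axes) of adipocyte, smooth muscle or myofibroblast, and macrophage markers in each of the 24 libraries by group, with symbols for the 3 libraries and black lines for group means. Adipocyte sums in the inverse model at 72 h are at 1918 or more in controls and at 1043 or less in co-cultures, and smooth muscle sums part the inverse groups at 24 h.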

How the data were processed

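RNA of 24 PSC libraries in 8 groups of 3 was sequenced. The authors aligned reads with HISAT2 2.0.5 to GRCm38.p6, summed fragments over genes with featureCounts 1.5.0-p3 at default settings, which disregard the strand, and deposited FPKM, which are relative to a library's total with no further scaling (versions from the submitters' processing notes). The annotation release is not given in the sources used here.

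Symbols, positions and transcript lengths came from GENCODE M21, which named 53706 of 53801 genes. Fragments were recovered from the FPKM and these lengths. Between 93.8% and 94.9% of values below 200 fragments were whole within 0.02.

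Groups followed the submitters' labels. The genotype of the KPC line is given in part, and the rest is not reported here. Differences were fitted with limma 3.58.1 in R 4.3.3 on log2(FPKM + 0.5), a scale that understates changes of low genes, with an intensity trend, over genes that exceeded an FPKM of 1 in 3 or more libraries of the fit. Each contrast used its own 6 libraries, the difference between models all 24 and that between times the 12 of the standard model. Tests were two-sided, with Benjamini-Hochberg adjustment over all genes tested. An exact permutation test of 3 against 3 libraries cannot go below 0.1 and was not used. The fit was tested on simulated data. Tables and plots used Python 3.11.15 with numpy 2.4.6, pandas 2.3.3 and matplotlib 3.10.9.

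The members, lists and tests were chosen with earlier results of these data known. Named were all 8 members, up to 4 genes a list that passed in a tested comparison, up to 2 others by level, and the 5 genes most like Cav1 and Cav2. Sums, ratios, marker genes that illustrate a list and Ehd3 were chosen after their values were seen. Same-numbered standard libraries deviated together (correlations of deviations from group means over genes between 0.48 and 0.82, each highest with its own number), whereas their labels do not say what a number shares. Alternatives were 2 other pseudocounts, other filters, 2 scalings, no trend, voom on recovered fragments, other libraries in the fit, a replicate block, a stricter threshold and each library left out.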

Additional observations from a re-analysis of the deposited data

How the results depend on the processing

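Over all results and settings, 740 values were labelled as unchanged, 25 turned sign, 13 moved and 8 lost their call. For a tested difference, unchanged means the same direction and the same side of the threshold. For an untested difference it means a move smaller than the spread within groups, whatever the sign, and for a count of coat genes little or no change. Cav1 in the inverse model at 24 h was past the threshold in 6 of 10 other settings, with an adjusted p from 0.00357 (voom) to 0.787 (limma with all 24 libraries in 1 fit). The count of coat genes called there was 0 with no filter, with no intensity trend, with all 24 libraries and at an adjusted p under 0.01 (added after seeing the data), and 0 to 1 with 1 library left out. The cause was not tested.

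Some values near 0 turned sign with the scaling. Cavin2 in the standard model at 72 h was 0.0299 after scaling and 0.0177 after quantile normalization, Cav1 between the controls of the 2 models at 24 h was -0.0239 and -0.00485, and at 72 h in the inverse model Cavin1 was 0.0543 and Pacsin2 0.15 after scaling. With 1 library left out, the log2 differences in the standard model at 24 h ran from -0.99 to 0.33 for Cav1, -0.63 to 0.28 for Cav2, -0.50 to 0.14 for Cavin1, -0.60 to 0.18 for Cavin2 and -0.36 to 0.14 for Pacsin2, and all 5 turned sign without co-culture replicate 2 and without control replicate 1. At 72 h they ran from -0.37 to 0.0189 for Cavin1 and -0.26 to 0.21 for Cavin2. Cav1 ran from -1.07 to 0.24 for the difference between models, -0.60 to 0.67 between standard controls over time, and -0.64 to 0.63 between controls of the 2 models.

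The correlations of deviations between same-numbered inverse libraries were -0.17, 0.04 and -0.13 at 24 h, 0.0962, -0.13 and 0.10 at 72 h, and at most 0.15 in controls and 0.21 in co-cultures over time. Not every pair was over 0.1, and the labels do not say what a number shares, so the fit without the block was kept. With the replicate block, 88 genes and 0 coat genes were called in the inverse model at 24 h (Cav1 adjusted p = 0.0636 in limma). Among standard libraries the block changed no call of a coat gene.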
